A study of Mus musculus with 10 samples.

Results

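Dopamine neurons of the midbrain are represented here by 8 genes: Th, Ddc, Chrna6, Pitx3, Nr4a2, Lmx1b, En1 and En2. They are 8 of the 8726 genes named on the array, and each has 1 of its 10080 probes, found as the probe whose single gene symbol in the platform's probe-to-gene table is that gene. The arrays compared midbrain RNA of DBA/1 mice with collagen-induced arthritis and of control DBA/1 mice, an inbred strain that develops joint inflammation after immunisation with type II collagen. The arthritic males, 8 weeks old, received 100 ul of collagen in 100 ul of complete Freund's adjuvant into the skin, and the control males only the adjuvant, 200 ul of it. LPS, a bacterial endotoxin, was given to arthritic and control mice alike at day 24, so the controls carried adjuvant and LPS too. The labels put the end point at 31 in a unit that is not clear. The 10 arrays form 5 dye-swap pairs, in which the collagen RNA was in Cy5 on 1 array and in Cy3 on the other. They are called 1a, 1b, 2a, 2b and 3a after the replicate number in the labels, so n = 3, which the design text calls biological replicates. The number of mice behind each RNA is not stated in the labels.

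These genes follow the life of a dopamine neuron. Tyrosine hydroxylase (Th) makes L-DOPA from tyrosine, and aromatic L-amino acid decarboxylase (Ddc) turns L-DOPA into dopamine. Neither enzyme is restricted to dopamine neurons, since Th also serves noradrenaline neurons and Ddc also serves serotonin neurons. Chrna6 is a nicotinic acetylcholine receptor subunit concentrated in catecholamine neurons. Lmx1b, En1 and En2 are homeodomain proteins that set up the midbrain and keep its dopamine neurons alive, and Lmx1b is also needed by serotonin neurons. En2 is also made in the cerebellum. Pitx3 and the orphan nuclear receptor Nr4a2 (Nurr1) drive the final identity of dopamine neurons, and Nr4a2 is also an immediate early gene. In whole tissue, fewer cells of a type and less RNA per cell cannot be told apart.

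The promoters of both enzymes are shown because Nr4a2 is known to act on the Th gene and cyclic AMP is known to drive it. RefSeq promoters (GRCm38.p6) were at hand for 6 of the 8 genes. The 250 bases before each start site were searched on both strands for the binding motif of Nr4a2 (NBRE, AAAGGTCA) and for the cyclic AMP response element (CRE, TGACGTCA), with matches in capitals. The Th stretch is chr7:142899996-142900245 and the Ddc stretch chr11:11898145-11898394, both on the minus strand and read 5′ to 3′.
Th promoter: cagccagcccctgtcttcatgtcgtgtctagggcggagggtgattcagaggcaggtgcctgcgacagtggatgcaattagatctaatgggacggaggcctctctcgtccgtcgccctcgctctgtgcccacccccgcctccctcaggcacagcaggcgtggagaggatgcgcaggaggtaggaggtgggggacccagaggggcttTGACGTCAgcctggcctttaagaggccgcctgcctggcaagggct
Ddc promoter: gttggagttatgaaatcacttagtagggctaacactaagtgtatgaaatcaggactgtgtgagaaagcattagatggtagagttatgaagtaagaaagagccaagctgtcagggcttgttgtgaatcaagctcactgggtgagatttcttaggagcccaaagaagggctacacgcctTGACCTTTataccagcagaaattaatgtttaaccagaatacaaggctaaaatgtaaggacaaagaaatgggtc
The Th stretch held a CRE that begins 45 bases before the start site. The Ddc stretch held an NBRE in reverse orientation, TGACCTTT, that begins 73 bases before it. Among 32851 promoters of the same length, 1.55% held the CRE and 1.34% the NBRE. Of the 7 promoters of these genes, 1 held each motif. Ddc has a second promoter in the table, chr11:11890409-11890658, in which neither motif was found. A match of letters is a description of the window and not a measured site.

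Ratios are given on the log2 scale with collagen on top, so values below 0 mark a lower level in arthritic midbrain. No source states this direction and it is only likely, since it takes channel A of the scanner as Cy3, the dye of channel 1 in the labels. With A as Cy5 every sign would turn. A spot gave a ratio on an array where both channels carried signal, which held for 4496 to 8425 of the 10080 probes per array. All 3 replicates had a value for 4139 probes (41.1%) and for all 8 dopamine neuron genes, whose choice was made with earlier results of these data known. A ratio on all 10 arrays was found for 4 of the 8 (Ddc, Chrna6, Pitx3 and En1), and for 18.2% of all probes. The 13 missing spots of Th, En2, Nr4a2 and Lmx1b had no signal in channel B in any scan, while 12 of them had signal in channel A in at least 1 scan. Such a spot gives no ratio and no bound.

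No dopamine neuron gene passed the test for a difference between arthritic and control midbrain. Th and Ddc lay above 0 in all 3 replicates, and Chrna6 and Pitx3 below 0 in all 3, each by a mean that limma did not separate from 0. Nr4a2, Lmx1b, En1 and En2 had replicates on both sides of 0. Limma called 0 of the 8 genes at an adjusted p under 0.05, as it called 0 of 4139 probes (0%). At an unadjusted p under 0.05 there were 0 of the 8, against 3.94% of all probes. Replicates of 1 sign throughout were seen for 4 of the 8, against 29.7% of probes, with 2 above 0 (8.92% of probes) and 2 below 0 (20.8% of probes). The median of the 8 means was -0.03 and that of all tested probes -0.02, with 5 of the 8 and 59.2% of all probes below 0. By replicate the median of the 8 genes was -0.02, -0.04 and 0.11 in replicates 1, 2 and 3, and that of all tested probes -0.04, -0.02 and -0.02.

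**Figure D1:**
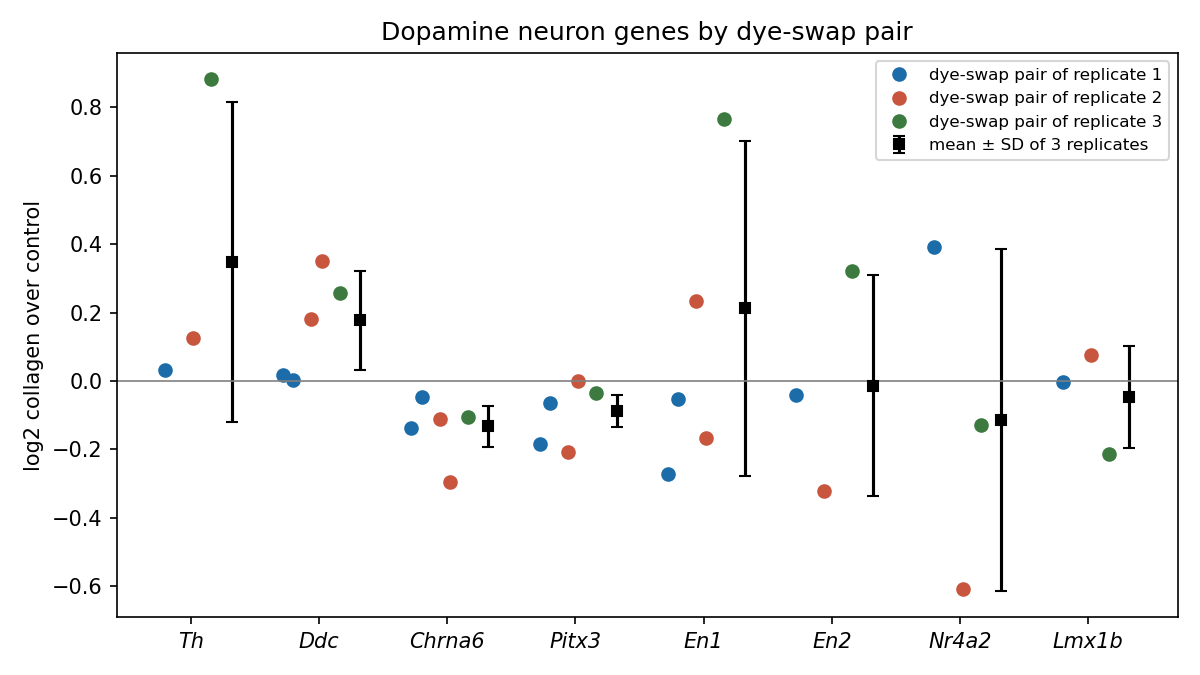
Log2 collagen over control of each dye-swap pair (points, coloured by replicate) for the 8 genes, with the mean and SD of the 3 replicates as black squares and bars. Th and En1 have their highest pair in replicate 3, at 0.88 and 0.77, while the pairs of Chrna6 and Pitx3 all lie below 0.

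Th, the enzyme of the rate-limiting step, had the largest mean of the group. Its pairs stood at 0.03 (1b), 0.13 (2b) and 0.88 (3a), and pairs 1a and 2a gave no ratio. The mean was 0.35 ± 0.47 (SD, n = 3), a 1.27-fold difference with a 95% interval of 0.941 to 1.72, and limma's adjusted p was 0.827. Replicate 3 thus lay far above the others, and without it the mean was 0.08. A larger mean in size was found for 1.91% of tested probes and a larger SD for 3.79%. The gene therefore stood out in size and in spread alike.

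The high Th value of replicate 3 rests on faint spots. On the 2 arrays of pair 3a the Th spot lay at the 10.6th and 9.53rd brightness percentile of its array, with collagen in Cy5 and in Cy3. Before normalisation and with collagen in Cy5, the collagen channel was 1.58 times its background and the control channel 0.655 times. Its repeat scans ranged from 0.31 to 1.98. With collagen in Cy3, the collagen channel was 0.944 times its background and the control channel 0.494 times, and 1 of 3 scans gave a ratio, at 0.86. The only other Th spot with a ratio above 0.8 was on the array of pair 2a with collagen in Cy3, with 0.98 from 1 scan at the 1.56th percentile. The 4 Th spots of pairs 1b and 2b were brighter, between the 46.5th and the 72.9th percentile. There Th stood at 0.44 and 0.64 with collagen in Cy5, and at -0.38 and -0.39 with collagen in Cy3. The sign turned with the dye on both pairs, and Th was brighter in channel B on all 4 of these arrays.

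Replicate 3 was run as 1 pair and replicates 1 and 2 as 2 pairs each. For Th, without a ratio in pairs 1a and 2a, every replicate rests on 1 pair. Over all probes, the values of replicates 1 and 2 average up to 2 pairs. The SD of the ratio over the 4139 tested probes was 0.30 in replicate 3, against 0.19 in replicate 1 and 0.15 in replicate 2. A ratio at least as large in size as that of Th in replicate 3 was found for 47 probes there (1.14%), for 21 in replicate 1 and for 4 in replicate 2. Within pair 3a the SD was 0.37 among the dimmest 20% of probes, where Th lay, and 0.18 among the brightest 20%. Pair 1a, in which Th gave no ratio, had larger SDs still, 0.40 and 0.26. The part of brightness in the Th value was not tested.

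Ddc, the next enzyme of the pathway, gave a ratio on all 10 arrays. Its pairs stood at 0.02 (1a), 0.00 (1b), 0.18 (2a), 0.35 (2b) and 0.26 (3a), so none lay below 0 and both pairs of replicate 1 lay near it. With collagen in Cy5 the arrays ranged from -0.03 to 0.53, and with collagen in Cy3 from -0.22 to 0.54, with 6 of 10 arrays above 0. The mean was 0.18 ± 0.15 (SD, n = 3), a 1.13-fold difference with a 95% interval of 0.972 to 1.32, and limma's adjusted p was 0.827. A larger mean in size was found for 16.0% of tested probes. Its SD was close to the median of all probes, 0.14. Its spots lay between the 24.4th and the 69.9th brightness percentile.

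**Figure D2:**
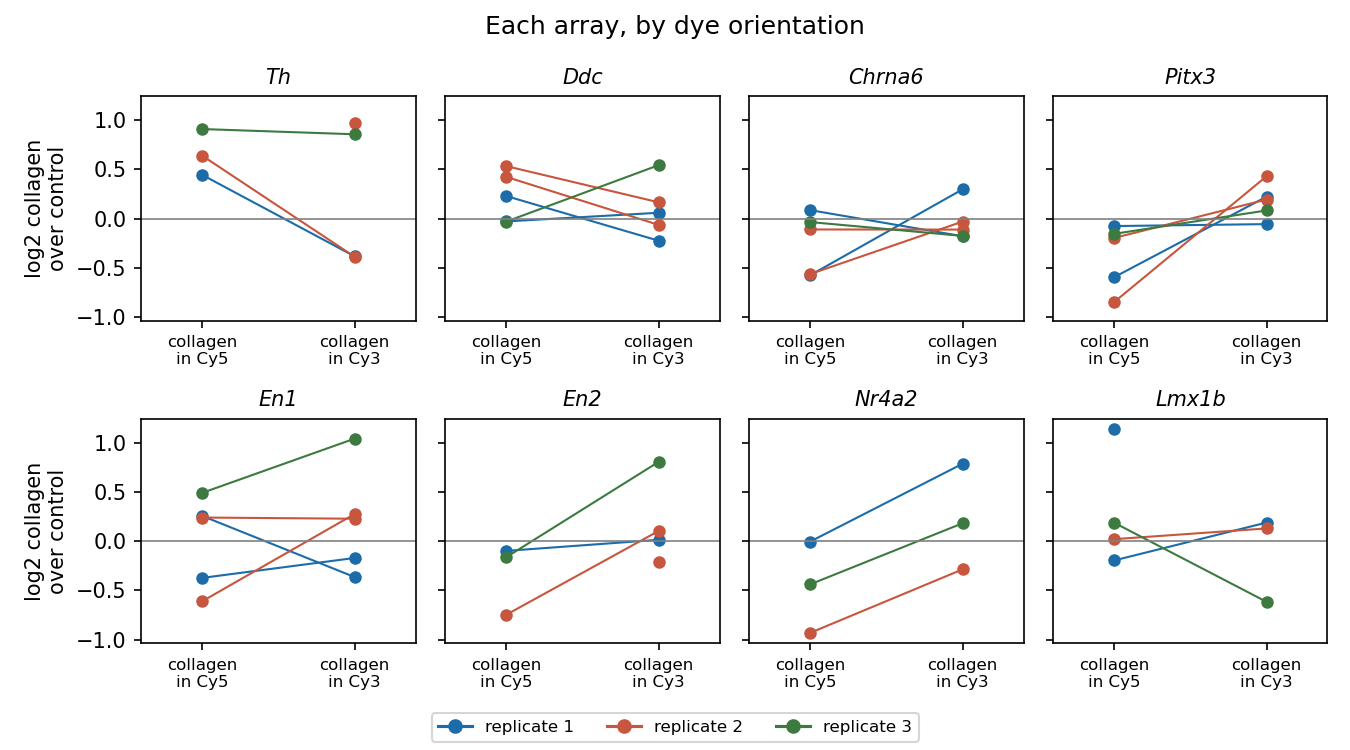
Log2 collagen over control on each array, with collagen in Cy5 at left and in Cy3 at right of each panel, lines joining the arrays of a dye-swap pair and colours giving the replicate. Th of replicates 1 and 2 crosses 0 between orientations, and all 5 arrays of Pitx3 with collagen in Cy5 lie below 0, the lowest at -0.85.

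Chrna6, the nicotinic receptor subunit, had one of the steadiest values of the group. Its pairs stood at -0.14 (1a), -0.05 (1b), -0.11 (2a), -0.30 (2b) and -0.10 (3a), all below 0, and 8 of 10 arrays were below 0. The mean was -0.13 ± 0.06 (SD, n = 3), a 0.912-fold level with a 95% interval of 0.801 to 1.04, and limma's adjusted p was 0.827. Its SD was among the lower ones, with 85.7% of probes more variable. Single arrays nevertheless ranged from -0.57 to 0.30. The repeat pairs differed by 0.09 in replicate 1 and by 0.19 in replicate 2, while the replicates spanned 0.11.

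Pitx3, the homeodomain factor of mature dopamine neurons, had the highest median brightness percentile of the 8 genes, 77.6, with a range of 58.9 to 98.0 over the arrays. Its pairs stood at -0.19 (1a), -0.06 (1b), -0.21 (2a), -0.00 (2b) and -0.04 (3a). The mean was -0.09 ± 0.05 (SD, n = 3), a 0.941-fold level with a 95% interval of 0.828 to 1.07, and limma's adjusted p was 0.831. The SD was small although the arrays of a pair differed widely. With collagen in Cy5 Pitx3 ranged from -0.85 to -0.07, all 5 below 0, and with collagen in Cy3 from -0.06 to 0.43, 4 of 5 above 0. The widest gap within a pair was 1.28, in pair 2a. Its mean was -0.37 over the 5 arrays with collagen in Cy5 and 0.18 over the 5 with collagen in Cy3.

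Nr4a2, the nuclear receptor, was the faintest and the most scattered of the factors. Its pairs stood at 0.39 (1b), -0.61 (2b) and -0.13 (3a), and pairs 1a and 2a gave no ratio. The mean was -0.11 ± 0.50 (SD, n = 3), with a 95% interval of 0.671 to 1.27 on the fold scale and limma's adjusted p of 0.901. A larger SD was found for 3.02% of probes. Its spots had a median brightness percentile of 13.8 and lay between 2.35 and 51.8. The immediate early genes Fos, Fosb, Dusp1 and Nr4a3, the last a close relative of Nr4a2, stood at -0.01, -0.05, -0.10 and -0.12, with 4 of 4 measured genes below 0, against 59.2% of all probes, and 0 called.

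Lmx1b, the homeodomain factor of dopamine and serotonin neurons, had pairs at -0.00 (1b), 0.08 (2b) and -0.21 (3a). The mean was -0.05 ± 0.15 (SD, n = 3), with a 95% interval of 0.831 to 1.13 on the fold scale and limma's adjusted p of 0.915. One further array, that of pair 1a with collagen in Cy5, gave 1.14 from 1 of 3 scans. Its partner gave no ratio, so this value entered no pair. The serotonin neuron genes Gata3, a transcription factor gene, and Slc6a4, the serotonin transporter, stood at -0.04 ± 0.03 and 0.04 ± 0.23.

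The engrailed genes En1 and En2 both had replicates on either side of 0. The pairs of En1 stood at -0.27 (1a), -0.05 (1b), 0.23 (2a), -0.17 (2b) and 0.77 (3a), and those of En2 at -0.04 (1a), -0.32 (2a) and 0.32 (3a). Both were highest in pair 3a, where the En1 spots lay at the 38.3rd and 58.8th brightness percentile with collagen in Cy5 and in Cy3. With collagen in Cy5, its collagen channel was 1.33 times background and its control channel 0.433 times, with repeat scans from -0.28 to 0.91. With collagen in Cy3, the collagen channel was 0.467 times background and the control channel 0.864 times, with scans from 0.64 to 1.27. The multiples of background are from before normalisation and do not give the direction. After it, the ratio of that array was 1.04, with collagen the higher. The mean of En1 was 0.21 ± 0.49 (SD, n = 3; limma adjusted p = 0.831) and that of En2 -0.01 ± 0.32 (SD, n = 3; limma adjusted p = 0.986). Without replicate 3 En1 stood at -0.06. The repeat pairs of En1 differed by 0.22 in replicate 1 and 0.40 in replicate 2, against medians of 0.19 and 0.14 over the 1830 probes with all 5 pairs. En2 had a median gap of 0.85 between the arrays of a pair, against 0.35 for all tested probes.

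**Figure D3:**
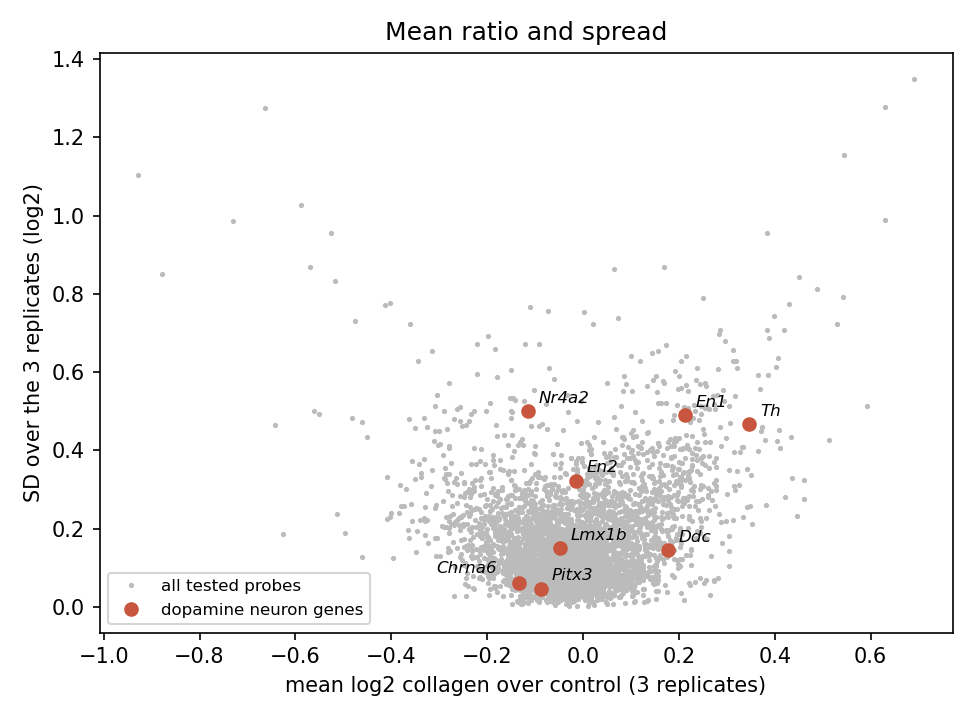
Mean log2 collagen over control (horizontal) against the SD over the 3 replicates (vertical) for the 4139 tested probes in grey and the 8 genes in red. Th, En1 and Nr4a2 lie in the upper part, with SDs of 0.47 to 0.50, and Pitx3 and Chrna6 near the bottom, with 0.05 and 0.06.

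The size of change that these arrays could have missed differed between the genes. Limma's 95% interval of all 8 lay within a 2-fold difference, as for 99.3% of all probes. It lay within a 1.5-fold difference for 6 of the 8, against 93.2% of all probes, the exceptions being Th (up to 1.72-fold higher) and En1 (up to 1.58-fold higher). The median SD of the 8 genes was 0.24, against 0.14 for all tested probes. Limma draws the spread of each gene towards that of all tested probes. For Th, En1 and Nr4a2, with SDs of 0.47 to 0.50, and for En2, with 0.32, its interval is narrower than their 3 replicates alone would give. That all 8 lay within 2-fold thus rests on this borrowed spread. So does the place of Nr4a2 (up to 1.49-fold lower) and En2 within 1.5-fold.

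Brightness and ratio size were set beside each other over the single arrays. Of 80 possible spots (8 genes on 10 arrays), 67 gave a ratio. The 9 of them in the dimmest 20% of their array had a median ratio of 0.79 in size, and 4 were over 0.8. The other 58 had a median of 0.21 in size, and 4 were over 0.8. The 9 dim spots belonged to Th, Nr4a2, En1 and En2. Over all probes the share is known for dye-swap pairs, which average their arrays, and not for single spots. By pair, ratios over 0.8 in size made up 0.763% to 5.29% of probes in the dimmest 20%. In the brightest 20% they made up 0.0847% to 2.47%.

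**Figure D4:**
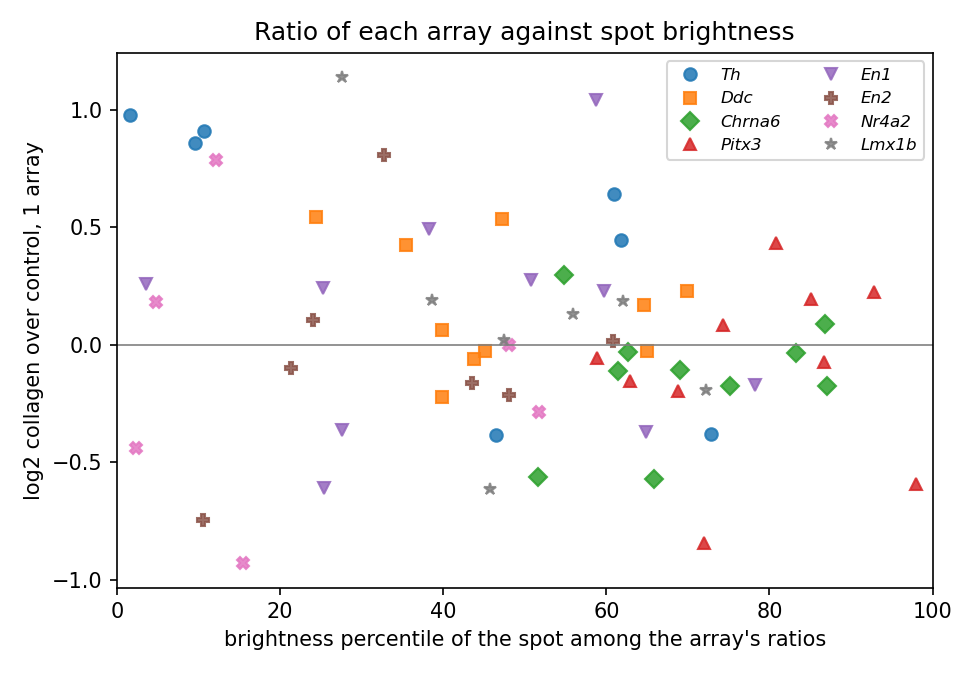
Log2 collagen over control on 1 array (vertical) against the brightness percentile of the spot among that array's ratios (horizontal), 1 symbol per gene and 67 points in all. The 3 Th points between 0.86 and 0.98 lie at the far left, below the 11th percentile, and the Th points of the brighter spots lie on both sides of 0.

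The 2 channels were also compared whatever RNA they held, and no gene of the 8 passed. The mean ratio of channel B over A, over both orientations, was 0.32 ± 0.26 for Th, -0.34 ± 0.05 for Nr4a2, -0.32 ± 0.23 for En2 and -0.25 ± 0.15 for Pitx3 (SD, n = 3). Limma's unadjusted p for these 4 lay between 0.00821 and 0.049, and 18.9% of all probes had one under 0.05. After adjustment 0 of the 8 genes passed (lowest adjusted p = 0.153, for Nr4a2), against 1.33% of all probes. Channel B was the brighter in all 3 replicates for Th (25.8% of probes), and the dimmer in all 3 for Pitx3, En2 and Nr4a2 (18.9% of probes). Ddc had no such lean, with 0.01 ± 0.26. The averaging over dye-swap pairs removes such a lean where it is of equal size on both arrays of a pair, and only where both gave a ratio. A lean that differs between them stays in part.

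Further genes of the dopamine system were compared from 4 lists, without the 8 genes. Of 66 such genes, 35 have a named probe and 18 were measured in all replicates, 6 above and 12 below 0, with 0 called. Over all tested probes 40.8% were above 0 and 59.2% below, so these counts are near the array's own share. Their median of -0.03 was also that of the 8 genes. No mean was over 0.2 in size, so the genes below were chosen after their values were seen. Spr, Qdpr and Pcbd1 make or recycle tetrahydrobiopterin, the cofactor of Th. Spr stood at 0.20 ± 0.32, with 0.02, 0.01 and 0.56 in replicates 1 to 3, so its mean too rested on replicate 3. Qdpr stood at 0.09 ± 0.13 and Pcbd1 at -0.01 ± 0.05. The transporter genes Slc6a3 and Slc18a2, which define dopamine neurons together with Th, have no named probe here.

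Of the receptor and signalling list, 4 of 14 genes were measured. The dopamine receptor gene Drd4 stood at -0.04 ± 0.08 and the opioid peptide gene Pdyn at 0.05 ± 0.18. Drd2, the receptor by which dopamine neurons sense their own transmitter, had a value in replicates 1 and 3 only, 0.10 and -0.26. Of the lineage factors, Lmx1a, the close relative of Lmx1b in dopamine progenitors, was the 1 measured gene and stood at -0.14 ± 0.06, below 0 in all replicates (limma adjusted p = 0.827). Of 10 measured genes of trophic signalling and others, 3 were above 0 and 7 below, again near the share over all probes (59.2% below). Sncg, a synuclein abundant in dopamine neurons, stood at 0.03 ± 0.02, and Ntrk2, the receptor of brain-derived neurotrophic factor, at -0.13 ± 0.05.

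**Figure D5:**
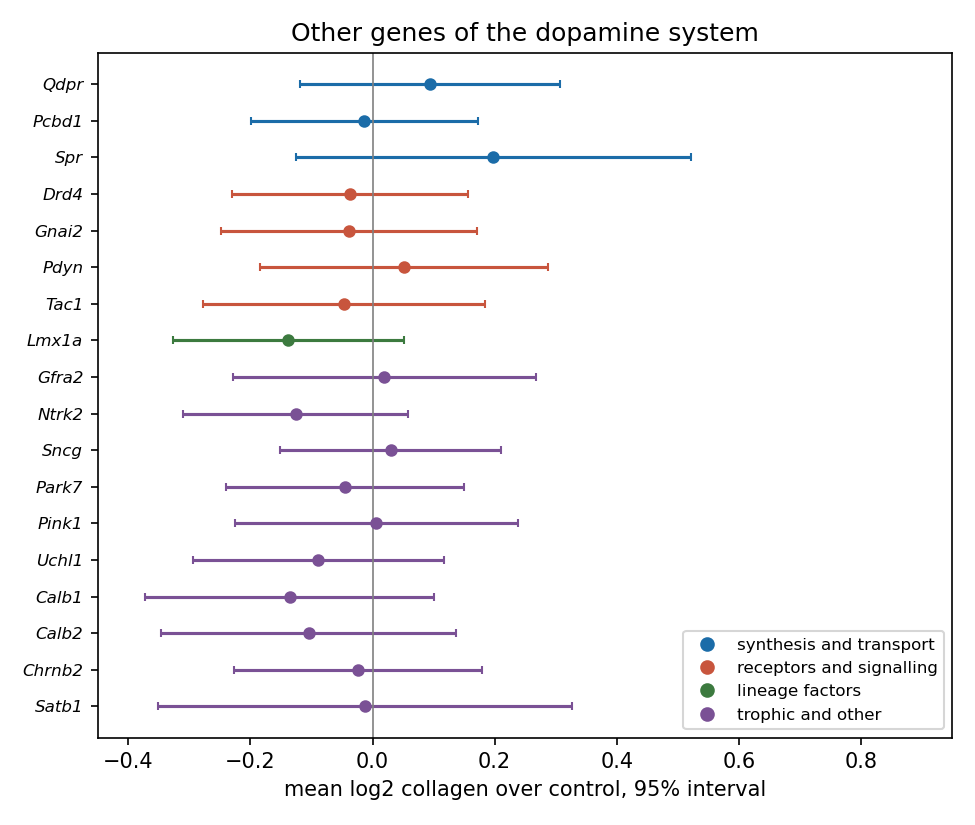
Mean log2 collagen over control with its 95% interval (limma) for the 18 other measured genes of the dopamine system, coloured by list. Every interval includes 0, and the means run from -0.14 (Lmx1a) to 0.20 (Spr).

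Markers of other cells that a midbrain dissection can hold were compared in the same fit. Of 87 marker genes, 47 have a named probe and 27 were measured, 11 above and 16 below 0, with 0 called, where 59.2% of all probes were below 0. Of 7 measured cerebellar genes besides En2, 6 were below 0 (59.2% of all probes were), led by the transcription factor gene Zic4 at -0.40 ± 0.13, with a list median of -0.14 against the -0.01 of En2. Of the cholinergic genes, the choline transporter Slc5a7 stood at 0.41 ± 0.45, with 0.11, 0.19 and 0.93 in replicates 1 to 3, so its mean rested on replicate 3 as well. The other measured cholinergic genes, Slc18a3 and Ache, stood at -0.06 and 0.01, and the list median was 0.01. GABA neuron genes stood between -0.27 (Slc32a1) and 0.11 (Gad2). Forebrain and hypothalamic genes had medians of 0.09 and 0.04, with Dlx1 (0.12) and Pmch (0.06) the largest in size. Astrocyte genes had a median of -0.06, with Aldh1l1 at -0.12 and Slc1a3 at -0.00. Oligodendrocyte genes had a median of -0.04 and went both ways, with Olig1 at -0.15 and Cldn11 at 0.05. Microglial genes had a median of -0.06 and also went both ways, with C1qc at -0.12 and C1qa at 0.04. Of the noradrenaline neuron genes, which share Th, 3 have a named probe and 0 were measured in all replicates. Their part in the ratios of Th was not tested.

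The genes closest in pattern to Th and to Ddc were taken by the root mean square difference over the dye-swap pairs, among 1687 and 1686 named probes with all 5 pairs. For Th, over its 3 pairs, they were Syne1, Atrn and Pdcd7, with differences of 0.05, 0.07 and 0.08. All 3 shared its high pair 3a, at 0.90, 0.80 and 0.94, which follows from the choice, since pair 3a entered the difference. In pairs 1a and 2a, where Th has no ratio, these genes ranged from -0.38 to 0.05 and from -0.37 to -0.12. For Ddc, over 5 pairs, they were Eps8, Bmper and Filip1l, with differences of 0.07, 0.08 and 0.09. The likeness was to be taken over 5 pairs, and Th has 3. With so few pairs it is a description.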

How the data were processed

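Total RNA of midbrain was copied to cDNA and coupled to Cy3 or Cy5, per the labels' protocols. The oligonucleotide arrays were home-made, per the design text. The deposited scanner files hold spot intensities, background corrected per the file headers, in channels A and B, with the background intensity and flags. Per the file headers they also hold a saturation factor, a fraction read here as 1 where a spot is not saturated. There are 29 scans of the 10 arrays. The authors' value table holds a score per probe whose log base, scaling and direction are unstated. Set against log2 channel B over A, it correlated at 0.672 or above where collagen was in Cy5, and negatively where it was in Cy3. No source used here names the software that quantified the spots.

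A spot counted where both channels were above 0 without an X, Y or Z flag. Log2 ratios were normalised by loess on brightness within each scan (limma 3.58.1 in R 4.3.3, span 0.3, 4 iterations). They were averaged over scans, turned to collagen over control, and the mean was taken over both arrays of a pair, where both had a ratio, and then over pairs of 1 replicate number. Spots were ordered by printing block to match probe numbers. Gene symbols were updated through the gene identifier. The mean of 3 replicates was tested against 0 with limma (lmFit, eBayes, two-sided, Benjamini-Hochberg over 4139 probes). A fold is 2 to the power of the mean, with the 95% interval from the same fit. P-values set the mean against the spread between these replicates, which limma draws towards that of all tested probes. The number of replicates limits the precision. On simulated data with 3 replicates of 4139 probes, the test called 84 of 100 probes changed by 1 on the log2 scale and 97 of 100 changed by 2. It also called 7 unchanged probes. These shares hold for probes drawn from all tested ones, with a median SD of 0.14. They are not those of genes as variable as Th, En1 and Nr4a2, with SDs of 0.47 to 0.50. The simulated replicates of a probe shared 1 SD, whereas ratios were more spread in replicate 3 than in the others. Changes smaller than 1 were not simulated.

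All 8 genes are named. Other dopamine genes were to be named where their mean was over 0.2 in size, and from each marker list its largest mean. The brightest tested probe stood for a gene. The genes, lists and tests were chosen with earlier results of these data known. Pairs of 1 replicate number were treated as repeats of the same RNAs. Across probes, the repeat pairs correlated at 0.0386 in replicate 1 and 0.116 in replicate 2.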

Additional observations from a re-analysis of the deposited data

How the results depend on the processing

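Limma called 0 of the 8 genes, as far as they were measured, in all 20 alternatives, and 0 probes in 19 of them. The exception read channel B over A as collagen over control whatever the dye and called 55 probes, none of the 8 genes among them (lowest adjusted p = 0.153). Leaving out the dimmest 20% of each array's spots was chosen after the data were seen. It left 5 of the 8 genes, Th not among them. Without the probes below the median brightness 2 of the 8 were measured, and with the 5 pairs as replicates 4. A single scan measured 5 to 7 of them. Of 139 values of single genes under alternatives, 125 kept their sign and 14 did not. Ddc, Chrna6, Pitx3 and Th kept theirs wherever they could be measured. In part this was fixed beforehand. Their 3 replicates shared a sign, so leaving out a replicate could not turn it. The 5 pairs of Ddc, Chrna6 and Pitx3 shared a sign too. A different prior for limma's spread, or leaving out probes below the median brightness, kept the means unchanged, yet entered the 125. The fixed channel letters give the channel difference and not that of treatment. With the dyes turned, Th ranged from 0.08 (without replicate 3) to 0.62 (normexp background correction with offset 50), and Ddc from 0.13 to 0.33. Ddc was 0.0062 with the fixed channel letters and 0.017 in the authors' value table, which has its own scale. Th had no value in 6 alternatives, among them the 5 pairs as replicates and the authors' value table.

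The median of the 8 genes was -0.12 with median centring, and -0.086 to 0.13 with a replicate left out (0.13 without replicate 2). With a replicate left out, En1 ranged from -0.065 to 0.40, En2 from -0.18 to 0.14, Nr4a2 from -0.37 to 0.13 and Lmx1b from -0.11 to 0.036. En1 turned to -0.12 with median centring and to -0.13 with the fixed channel letters. En2 turned to 0.11 without background correction, and stood at 0.014 in the authors' value table if that is read as collagen over control. Lmx1b turned to 0.053 with median centring, 0.0068 with scaling between arrays, 0.011 with the second scan alone, 0.094 in the array-level fit with the replicate block, 0.0943 in that without it and 0.052 with the fixed channel letters. Except where fewer scans, probes or replicates entered, the cause was not tested. The replicate block (consensus correlation 0.0365) left 0 calls, as did the same fit without it, and only the repeat pairs of replicate 2 correlated above 0.1. Th, En2, Nr4a2 and Lmx1b gave a ratio on 6 or 7 arrays, and their other spots had no usable signal in channel B.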
